A study of Mus musculus with 20 samples.

Results

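The 10 mouse genes described here encode ligands, receptors and feedback components of TGF-beta and activin signalling: Tgfb1, Tgfb2, Tgfb3 and Inhba (ligands), Tgfbr1, Tgfbr2 and Tgfbr3 (receptors), and Smad7, Skil and Pmepa1 (feedback). They were taken by name from a list drawn up with earlier results of these data known. No threshold on a measured value selected them. All 10 were found among the 47729 Ensembl identifiers of each count table, and all 10 passed the filter on low counts that left 14820 genes for testing. Colon fibroblasts of C57BL6/J mice had been cultured and their polyadenylated RNA sequenced, in a series on inflammatory fibroblasts and therapy resistance in rectal cancer. The cells grew in 2D plates and either stayed untreated or received organoid conditioned medium for 24 h, with 4 libraries in each of 5 groups. The labels title the untreated group wild-type, and for the treated groups they give the strain and no genotype. The media came from organoids called APTK or APTKA, names that the labels do not expand, and each medium also had an irradiated arm of 5 fractions of 2 Gy. The labels do not say whether organoids or fibroblasts were irradiated, and they name no group with unconditioned organoid medium and no irradiated untreated group. Libraries are called I to IV here, by the replicate number of the labels. The labels do not tie these numbers to animals or cultures. The p-values therefore speak only of the scatter among libraries, part of which may be technical.

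TGF-beta ligands are secreted in a latent form, held in the matrix, and freed before they bind a pair of type I and type II serine/threonine kinase receptors, which phosphorylate SMAD2 and SMAD3. Activins, dimers of inhibin beta chains, use their own receptors and the same SMADs. In fibroblasts the pathway is best known for inducing matrix and contractile genes, and it also induces its own inhibitors, among them the genes of the feedback group described here.

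Library totals lay between 17.3 and 31.6 M counts, with a median of 26.4 M counts. Of the 9 fibroblast markers, all were detected, and their summed level lay between 56028 and 63010 CPM (counts scaled to a common library depth by the TMM method) in untreated libraries, 48291 and 53840 with APTK medium, and 28663 and 32766 with APTKA medium. All 9 fell with APTKA medium, whereas 1 fell and 3 rose with APTK medium. In bulk libraries, fewer cells of a type and less RNA per cell cannot be told apart. The 6 pericyte and smooth muscle markers, of which none was at 0, summed to between 605 and 699.7 CPM in untreated, 638 and 761 with APTK medium, and 415 and 455 with APTKA medium. Of these 6, 4 fell and 1 rose with APTKA medium, with log2 fold changes from -0.81 to 1.32. The 9 epithelial markers summed to between 1.57 and 2.91 CPM over all groups, and the defining epithelial gene Epcam reached at most 0.105 CPM in any library. The 9 leukocyte markers summed to between 8.16 and 11.7 CPM, with Ptprc at most 0.195 CPM. The 5 endothelial markers summed to between 1.98 and 3.00 CPM in untreated libraries, 0.691 and 1.15 with APTK medium, and 1.68 and 2.00 with APTKA medium. Fibroblast markers thus fell with APTKA medium and pericyte and smooth muscle markers moved both ways, and their part in the results below was not tested. Of the irradiated APTK group, 2 libraries stood apart on the third principal component of log2 CPM. Library II, which had the lowest total, lay at -40.8 and library IV at 13.4, against -5.41 and -3.94 for the other irradiated APTK libraries and 7.11 to 10.8 for plain APTK medium. Libraries I and III of that group also differed from each other. Their counts gave a chi-square per degree of freedom of 88.2, the highest of any replicate pair, against 17.1 for libraries I and IV. Their mitochondrial shares were 1.21% and 0.534% of counts. For the 10 genes, calls of that group that change without libraries II and IV are given both ways, and such fits rest on libraries I and III.

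With APTKA medium, 4 of the 10 genes rose and 4 fell against untreated fibroblasts. Tgfb2, Inhba, Tgfbr3 and Skil rose, while Tgfb3, Tgfbr1, Tgfbr2 and Pmepa1 fell. In that comparison 61.4% of all tested genes passed the 5% threshold of edgeR's quasi-likelihood test after Benjamini-Hochberg adjustment, 31.5% as higher and 29.9% as lower, so the count of 8 is given as a description. The 4 libraries of each group did not overlap for 8 of the 10, beside 56.1% of all genes. With APTK medium, Tgfb2, Inhba, Tgfbr3 and Pmepa1 rose and only Tgfbr2 of the 10 fell, beside 43.4% of all genes called, 20.9% as higher and 22.5% as lower. Its libraries were apart from untreated for 6 of the 10, beside 42.8% of all genes. Pmepa1 therefore moved in opposite directions with the 2 media. The direct comparison of APTKA with APTK medium called 8 of the 10, with Tgfb2, Inhba, Tgfbr3 and Skil higher and Tgfb3, Tgfbr1, Tgfbr2 and Pmepa1 lower with APTKA medium. Of all genes 62.9% were called, 31.1% as higher and 31.8% as lower, and libraries were apart for 8 of the 10, beside 59.7% of all genes. Irradiated APTKA medium raised the same 4 genes and lowered the same 4 as plain APTKA medium, with 61% of all genes called, 31% as higher and 30% as lower. Libraries were apart for 8 of the 10, beside 57.4%. Irradiated APTK medium raised Tgfb2, Tgfb3, Tgfbr3, Inhba and Pmepa1 and lowered Tgfbr2, with 43.6% of all genes called, 21.5% as higher and 22.2% as lower. Libraries were apart for 4 of the 10, beside 32.6%. Between the irradiated media 7 of the 10 passed, Tgfb2, Inhba and Skil higher and Tgfb3, Tgfbr1, Tgfbr2 and Pmepa1 lower with APTKA. Of all genes 61.3% were called there, 30.1% as higher and 31.2% as lower, and libraries were apart for 6 of the 10, beside 51.5%. Comparisons of a medium with untreated share the untreated libraries, so their values are set side by side and not counted as separate support. Tgfb1 and Smad7 passed the threshold in none of the 9 comparisons.

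**Figure D1:**
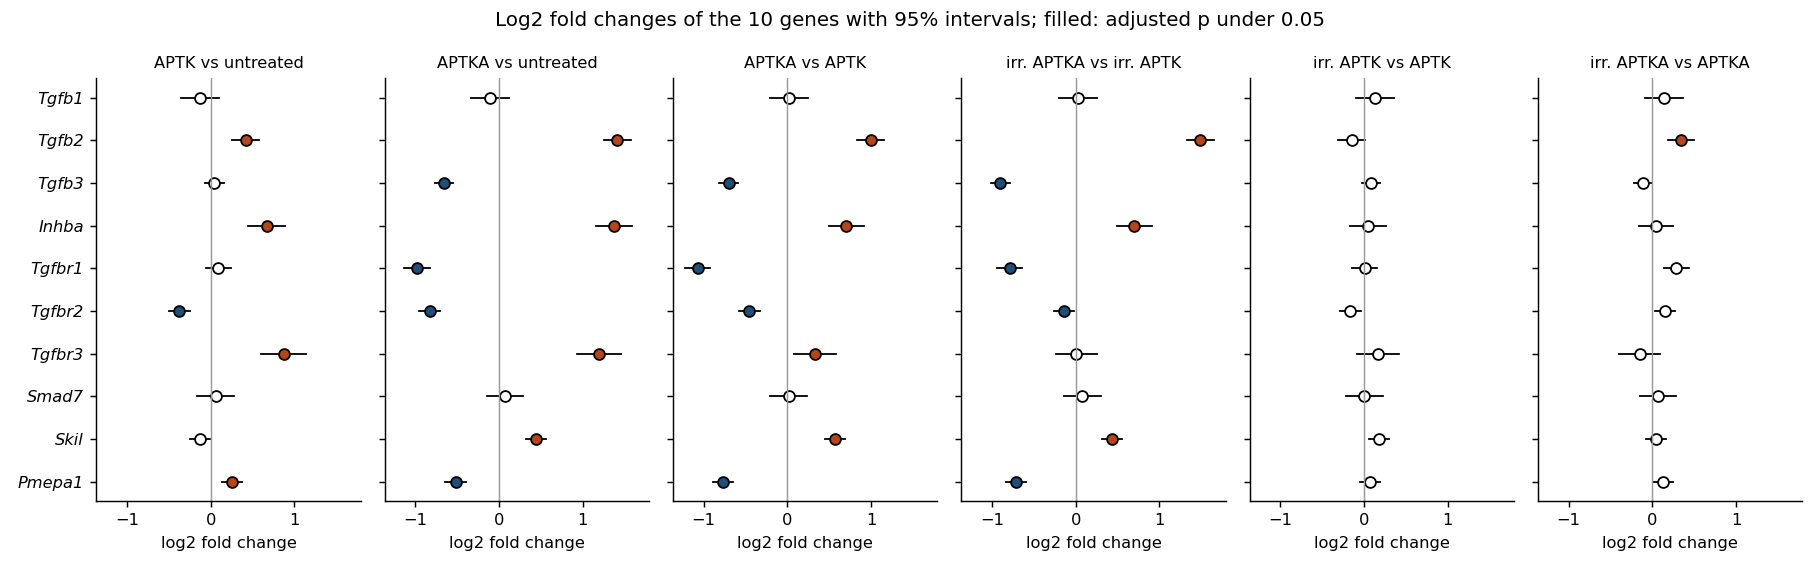
Log2 fold changes of the 10 genes (rows) in 6 comparisons (panels), from 1 fit over all 20 libraries; lines are 95% intervals and filled points have an adjusted p under 0.05. Tgfb2 lies at 1.41 with APTKA medium and 0.42 with APTK medium against untreated, Pmepa1 at -0.52 and 0.25, and only Tgfb2 is filled in the panels on irradiation.

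Levels can be compared between genes only per length, here as CPM per kilobase of merged exons. Merged exons join all annotated transcripts of a gene and can exceed the length of the transcript made. The order between genes depends on that choice. In untreated fibroblasts Tgfb3 (64.3 ± 3.38 CPM per kb, SD, n = 4) and Pmepa1 (62.5 ± 2.04) stood highest, and their libraries overlapped. Next came Tgfbr2 at 53.6 ± 3.45, Tgfbr1 at 16.9 ± 0.742, Skil at 13.2 ± 0.443 and Tgfb2 at 11.3 ± 0.416 CPM per kb. Smad7 followed at 9.88 ± 0.743, Inhba at 5.59 ± 0.293, Tgfb1 at 3.53 ± 0.544 and Tgfbr3 at 1.21 ± 0.153 CPM per kb. Apart from the first pair, libraries of neighbours in this order did not overlap. With APTKA medium the order changed below the first pair: Tgfb2 (30.1 ± 1.82 CPM per kb) overlapped Tgfbr2 (30.2 ± 0.502), and Inhba (14.5 ± 1.34) stood above Tgfbr1 (8.54 ± 0.535). With APTK medium Pmepa1 and Tgfb3 overlapped at the top, followed by Tgfbr2 and Tgfbr1. Tgfb2 and Skil changed places against untreated, with Tgfb2 at 15.1 ± 1.27 CPM per kb above Skil at 12.1 ± 0.551. Smad7 and Inhba overlapped next, and Tgfb1 and Tgfbr3 were lowest in each of the 5 groups.

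Of the ligands, Tgfb2 and Inhba rose with both media while Tgfb1 did not pass the threshold, and RefSeq promoter windows (GRCm38.p6, from 250 bases before to 50 after the start) of these 3 genes are shown so that their letters can be set beside those values. Such windows were matched for 5 of the 10 genes. Capitals mark matches on either strand to any of 6 motifs. The SMAD box was searched for as CAGAC and the AP-1 motif as TGANTCA. The core of the cyclic AMP response element was searched for as TGACG and the TATA box as TATAAA. The palindromic E-box was searched for as CACGTG and the GC box as GGGCGG. No 2 marked matches overlapped. Each window is written 5′ to 3′ on the strand of its gene. Tgfb2 lies on the minus strand at chr1:186705940-186706239, Inhba on the plus strand at chr13:16011601-16011900, and Tgfb1 on the plus strand at chr7:25686752-25687051.
Tgfb2: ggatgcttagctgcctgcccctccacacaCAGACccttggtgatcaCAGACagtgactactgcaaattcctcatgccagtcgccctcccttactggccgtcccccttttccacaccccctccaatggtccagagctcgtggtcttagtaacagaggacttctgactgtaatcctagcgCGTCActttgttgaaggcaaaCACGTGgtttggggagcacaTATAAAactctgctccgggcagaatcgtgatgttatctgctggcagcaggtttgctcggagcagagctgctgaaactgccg
Inhba: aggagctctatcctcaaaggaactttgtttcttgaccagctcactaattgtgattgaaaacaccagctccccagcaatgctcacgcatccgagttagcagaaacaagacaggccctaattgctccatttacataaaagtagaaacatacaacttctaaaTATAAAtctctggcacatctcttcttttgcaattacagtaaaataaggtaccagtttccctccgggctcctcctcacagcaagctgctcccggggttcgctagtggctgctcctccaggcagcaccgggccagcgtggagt
Tgfb1: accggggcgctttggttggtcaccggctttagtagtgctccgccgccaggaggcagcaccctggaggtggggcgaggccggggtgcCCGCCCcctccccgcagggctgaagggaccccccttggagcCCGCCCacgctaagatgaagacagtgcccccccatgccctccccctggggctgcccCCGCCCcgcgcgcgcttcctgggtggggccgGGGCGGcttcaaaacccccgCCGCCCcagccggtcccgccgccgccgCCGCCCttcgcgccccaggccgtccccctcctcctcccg
The Tgfb2 window held 2 CAGAC matches, 1 TGACG match on the reverse strand, a CACGTG starting at -51 and a TATAAA starting at -31 from the start. The Inhba window held a TATAAA starting at -91 and no other match, and the Tgfb1 window held 6 GGGCGG matches and no TATAAA. Of 32851 promoter windows of the same length, 49.6% held CAGAC, 7.81% TGANTCA, 20.8% TGACG, 13.6% TATAAA, 7.15% CACGTG and 35.7% GGGCGG. Tgfbr1 and Tgfbr2, which fell with APTKA medium, also had windows, not shown here. The Tgfbr2 window held a CAGAC at -160 and the second Tgfbr1 window a CAGAC at -203. The first Tgfbr1 window held GGGCGG at -133 and -95. A match describes these letters only and names no bound factor.

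Tgfb2, a ligand that needs the co-receptor betaglycan for strong binding, lies on chromosome 1 at 186622792 to 186705989 on the minus strand (mm10, GENCODE M21). Its level was 68.9, 66.1, 63.7 and 63.9 CPM in untreated libraries I to IV. With APTK medium it was 85.5, 95.8, 78.5 and 90.5 CPM, and with APTKA medium 188, 162, 174 and 174 CPM. Every APTK library lay above every untreated one, and every APTKA library lay above every APTK library. The fold was 2.66 with APTKA medium, log2 fold change 1.41 ± 0.0785 (SE, adjusted p = 3.62e-14), and 1.33 with APTK medium, log2 fold change 0.42 ± 0.0782 (SE, adjusted p = 1.09e-04). Between the media the log2 difference was 1.00 ± 0.0773 (SE, adjusted p = 2.92e-11). In the irradiated arms Tgfb2 stood at 237, 206, 219.6 and 224 CPM with APTKA medium and 78.6, 75.2, 67.0 and 95.2 CPM with APTK medium, a log2 difference of 1.49 ± 0.0784 (SE, adjusted p = 1.97e-14). Against untreated, irradiated APTKA medium gave 1.76 (adjusted p = 6.18e-16) and irradiated APTK medium 0.27 (adjusted p = 0.00748). The call for irradiated APTK medium was lost without its library IV (log2 fold change 0.16, adjusted p = 0.0535) and without libraries II and IV (0.14, adjusted p = 0.16). Gm29491 on the opposite strand overlaps 2.14% of the Tgfb2 exons, and with no stated strand setting its reads cannot be told apart there.

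Tgfb3, the ligand with the highest level per length in untreated fibroblasts, went the other way with APTKA medium. It lies on chromosome 12 at 86056745 to 86079041. Its untreated libraries held 205, 211, 223 and 230.4 CPM and its APTKA libraries 134, 139, 144 and 136 CPM. All APTKA libraries lay below all untreated ones, 1.58-fold lower, with log2 fold change -0.66 ± 0.0533 (SE, adjusted p = 2.39e-11). With APTK medium it was 222, 230.3, 210.5 and 234 CPM, which overlapped untreated, with a log2 fold change of 0.04 (adjusted p = 0.524) and a 95% interval of -0.06 to 0.15. Between the media Tgfb3 differed by -0.70 ± 0.0533 (SE, adjusted p = 7.14e-12) on the log2 scale. Irradiated APTKA libraries held 128, 127, 128 and 128 CPM and irradiated APTK libraries 255, 232, 250.2 and 216 CPM, which did not overlap (-0.90, adjusted p = 5.82e-14). Against untreated these were -0.77 (adjusted p = 1.05e-12) and 0.13 (adjusted p = 0.0458), and the second call was lost in DESeq2 (0.12, adjusted p = 0.0598). That call was lost with no filter on low counts (0.13, adjusted p = 0.106) and with only the compared groups in the fit (0.12, adjusted p = 0.166). Leaving out untreated library I, II or III, or irradiated APTK library I or III, also ended it (0.10 to 0.14, adjusted p = 0.0535 to 0.171). Gm37804 and Gm48008 on the opposite strand overlap the Tgfb3 exons, by at most 7.60% of their length. Tgfb1, the most studied TGF-beta ligand, ranged over 15.5 to 21.8 CPM in untreated, 14.3 to 19.7 with APTK medium and 16.0 to 17.0 with APTKA medium. These groups overlapped, and the 95% intervals of the log2 fold change were -0.35 to 0.10 with APTK medium and -0.33 to 0.12 with APTKA medium.

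**Figure D2:**
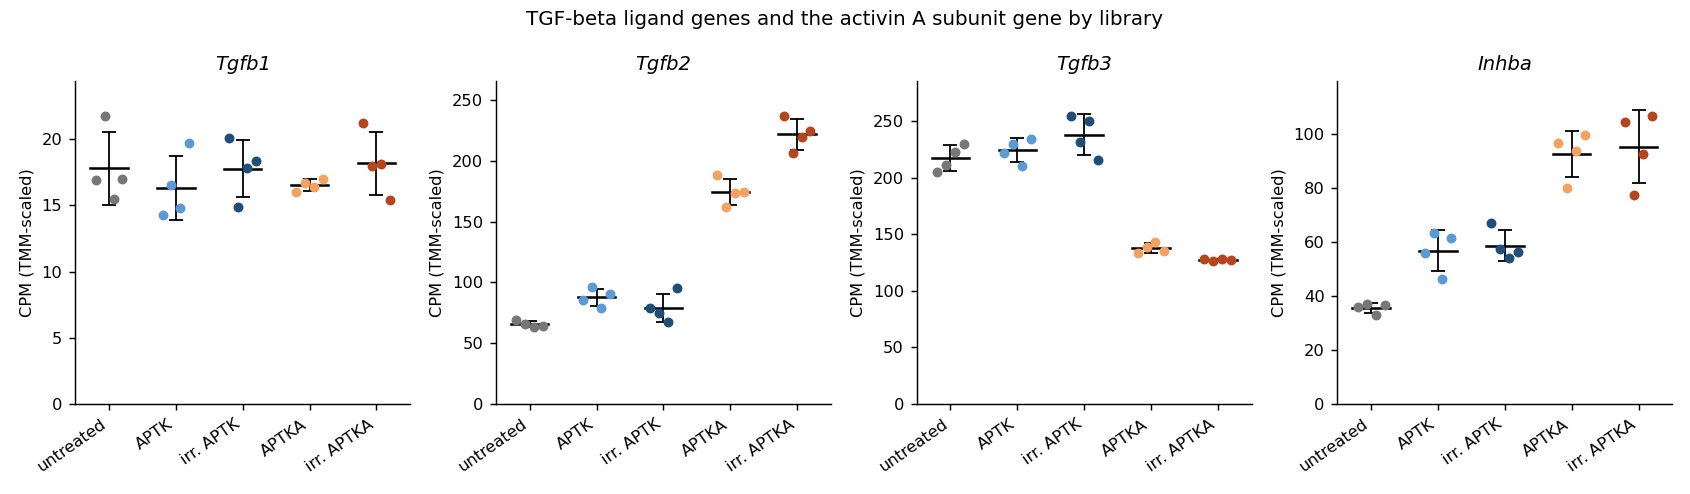
CPM (TMM-scaled) of Tgfb1, Tgfb2, Tgfb3 and Inhba in each of the 20 libraries (points) by group, with the mean (long bar) and SD over 4 libraries; each vertical axis starts at 0 and has its own scale. Tgfb2 rises from 65.6 CPM in untreated to 175 with APTKA medium and 222 in its irradiated arm, while Tgfb3 falls from 217 to 138 and 128.

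Per exon length, the shares of Tgfb2 and Tgfb3 in the summed level of the 3 TGF-beta ligand genes differed between the media. The sum was 79.1 ± 2.82 CPM per kb in untreated (SD, n = 4), 84.7 ± 4.67 with APTK medium and 74.2 ± 1.53 with APTKA medium. Of this sum Tgfb2 made up 14.3% ± 1.02 in untreated, 17.8% ± 0.685 with APTK medium and 40.6% ± 1.93 with APTKA medium. The Tgfb3 share was 81.2% ± 1.50, 78.3% ± 0.750 and 55.0% ± 1.83 in the same groups. In irradiated APTKA medium Tgfb2 held 48.0% ± 1.23 and Tgfb3 47.4% ± 1.34, whereas in irradiated APTK medium Tgfb2 held 15.6% ± 2.82 and Tgfb3 80.3% ± 3.00. The Tgfb2 share lay between 38.7% and 49.3% in the 8 libraries with APTKA medium, plain or irradiated. It lay between 13.0% and 19.6% in all others. Tgfb1 stayed between 3.40% and 5.53% in every library, on its merged exon length of 5042 bases. The size of each share depends on such lengths.

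**Figure D3:**
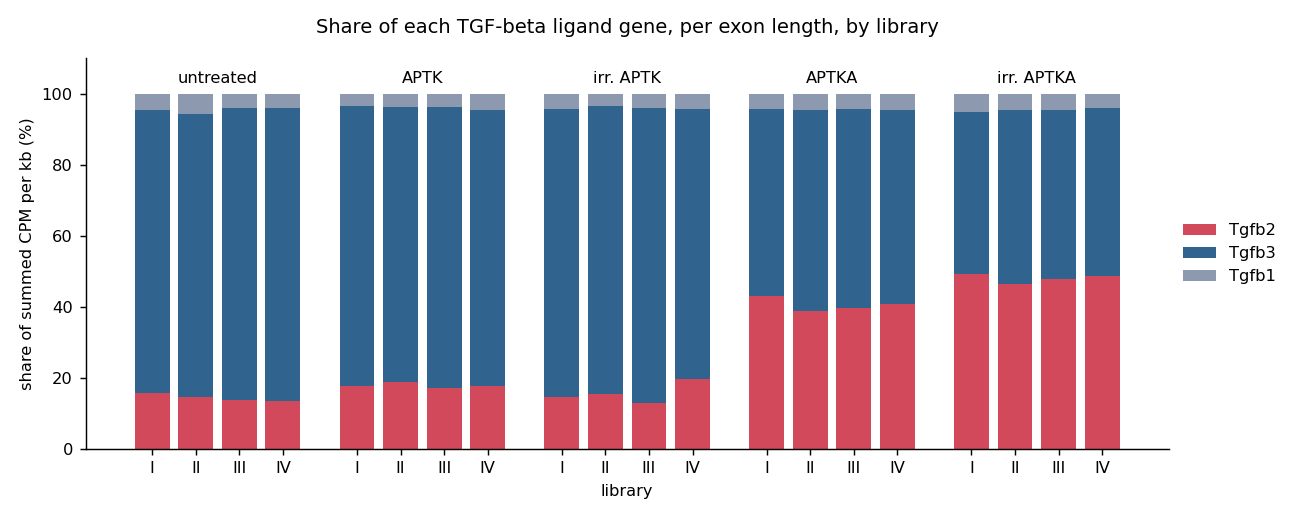
Share of Tgfb2, Tgfb3 and Tgfb1 in their summed CPM per kb of exon (vertical axis, %) in each of the 20 libraries, by group. The Tgfb2 part lies between 38.7% and 49.3% in the libraries with plain or irradiated APTKA medium and between 13.0% and 19.6% in the others.

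Inhba encodes the inhibin beta A chain, whose dimer is activin A, and lies on chromosome 13 at 16011851 to 16031621. In untreated libraries it held 35.8, 37.2, 33.0 and 36.7 CPM. With APTK medium it held 55.9, 63.4, 46.3 and 61.4 CPM and with APTKA medium 96.6, 80.2, 93.8 and 99.6 CPM. The 3 groups did not overlap, in the order untreated, APTK, APTKA. The fold was 1.59 with APTK medium, log2 fold change 0.67 ± 0.105 (SE, adjusted p = 2.21e-05), and 2.59 with APTKA medium, log2 fold change 1.37 ± 0.104 (SE, adjusted p = 1.71e-10). APTKA exceeded APTK medium by 0.71 ± 0.101 (SE, adjusted p = 2.92e-06) on the log2 scale. The irradiated arms stood at 67.0, 57.6, 53.9 and 56.2 CPM with APTK and 104, 77.6, 92.6 and 107 CPM with APTKA medium. These did not overlap either, with a log2 difference of 0.70 (adjusted p = 3.53e-06), and against untreated they gave 0.71 (adjusted p = 1.08e-05) and 1.42 (adjusted p = 1.07e-10).

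Both signalling receptors of TGF-beta fell with APTKA medium, and the co-receptor gene rose. Tgfbr1 encodes the type I receptor kinase and lies on chromosome 4 at 47353222 to 47414931. Its level was 103, 111, 114 and 112 CPM in untreated, 109.9, 126, 115 and 119 with APTK medium and 59.6, 57.9, 53.8 and 52.0 with APTKA medium. The APTKA libraries lay below all others of these 3 groups, while untreated and APTK libraries overlapped. The log2 fold change was -0.98 ± 0.0740 (SE, adjusted p = 7.50e-12) with APTKA medium, 1.97-fold lower, and 0.09 (adjusted p = 0.328) with APTK medium, with a 95% interval of -0.06 to 0.24. Between the media Tgfbr1 differed by -1.07 ± 0.0740 (SE, adjusted p = 1.46e-12). Irradiated APTKA libraries held 71.3, 69.9, 71.3 and 60.3 CPM, of which library IV lay far below the other irradiated APTKA libraries. Irradiated APTK libraries held 119.7, 126, 129.6 and 96.8 CPM, of which library IV was the lowest, and the difference between the irradiated media was -0.79 (adjusted p = 5.27e-10). Against untreated, irradiated APTKA medium gave -0.69 (adjusted p = 5.21e-09) and irradiated APTK medium 0.10 (adjusted p = 0.291), which became 0.18 (adjusted p = 0.0193) without library IV and 0.17 (adjusted p = 0.0398) without libraries II and IV.

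Tgfbr2, the type II receptor kinase that binds ligand first, lies on chromosome 9 at 116084293 to 116175360 and fell with both media. It held 466, 460.4, 411 and 418 CPM in untreated, 305, 329.6, 371 and 351 with APTK medium and 249.8, 251, 242 and 246 with APTKA medium. The groups did not overlap, and APTKA libraries were lowest. Log2 fold changes against untreated were -0.37 ± 0.0604 (SE, adjusted p = 1.30e-05) with APTK medium and -0.83 ± 0.0608 (SE, adjusted p = 3.28e-12) with APTKA medium. The media differed by -0.46 ± 0.0606 (SE, adjusted p = 2.43e-07). In the irradiated arms the libraries held 289, 294, 303 and 323 CPM with APTK and 293, 275, 280.1 and 249.7 CPM with APTKA medium, and overlapped. The log2 difference there was -0.14 (adjusted p = 0.0493). That call was lost in DESeq2 (-0.13, adjusted p = 0.0663) and without irradiated APTK libraries II and IV (-0.08, adjusted p = 0.333). It was lost as well with no filter on low counts (-0.10, adjusted p = 0.235) and with only the compared groups in the fit (-0.14, adjusted p = 0.0692). Leaving out 1 library, II, III or IV of either irradiated group, also ended it (-0.15 to -0.09, adjusted p = 0.0658 to 0.21). Against untreated, Tgfbr2 fell with both irradiated media, with log2 fold changes of -0.54 (adjusted p = 4.53e-08) for APTK and -0.68 (adjusted p = 1.80e-10) for APTKA.

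Tgfbr3 encodes betaglycan, a co-receptor without kinase activity that presents ligand, Tgfb2 protein above all, and also binds inhibin. It lies on chromosome 5 at 107106570 to 107289629 and had the lowest group mean per length of the 10 genes. It held 7.60, 9.36, 7.73 and 7.02 CPM in untreated, 14.9, 14.1, 16.6 and 12.2 with APTK medium and 16.8, 19.5, 18.7 and 17.7 with APTKA medium. Every conditioned library lay above every untreated one. The log2 fold changes were 0.87 ± 0.129 (SE, adjusted p = 5.29e-06) with APTK medium and 1.20 ± 0.127 (SE, adjusted p = 9.12e-09) with APTKA medium. The media differed by 0.33 (adjusted p = 0.0201), a call lost with upper quartile scaling (0.26, adjusted p = 0.0699), without APTK library IV (0.26, adjusted p = 0.079) and without APTKA library II (0.29, adjusted p = 0.0588). In the irradiated arms it held 15.6, 17.1, 19.4 and 12.9 CPM with APTK and 17.3, 19.5, 15.6 and 13.0 CPM with APTKA medium, which overlapped, with a 95% interval of -0.24 to 0.26 for their log2 difference. Against untreated these gave 1.04 (adjusted p = 4.36e-07) and 1.05 (adjusted p = 9.49e-08). Gm43422 overlaps 4.54% of the Tgfbr3 exons on the same strand.

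**Figure D4:**
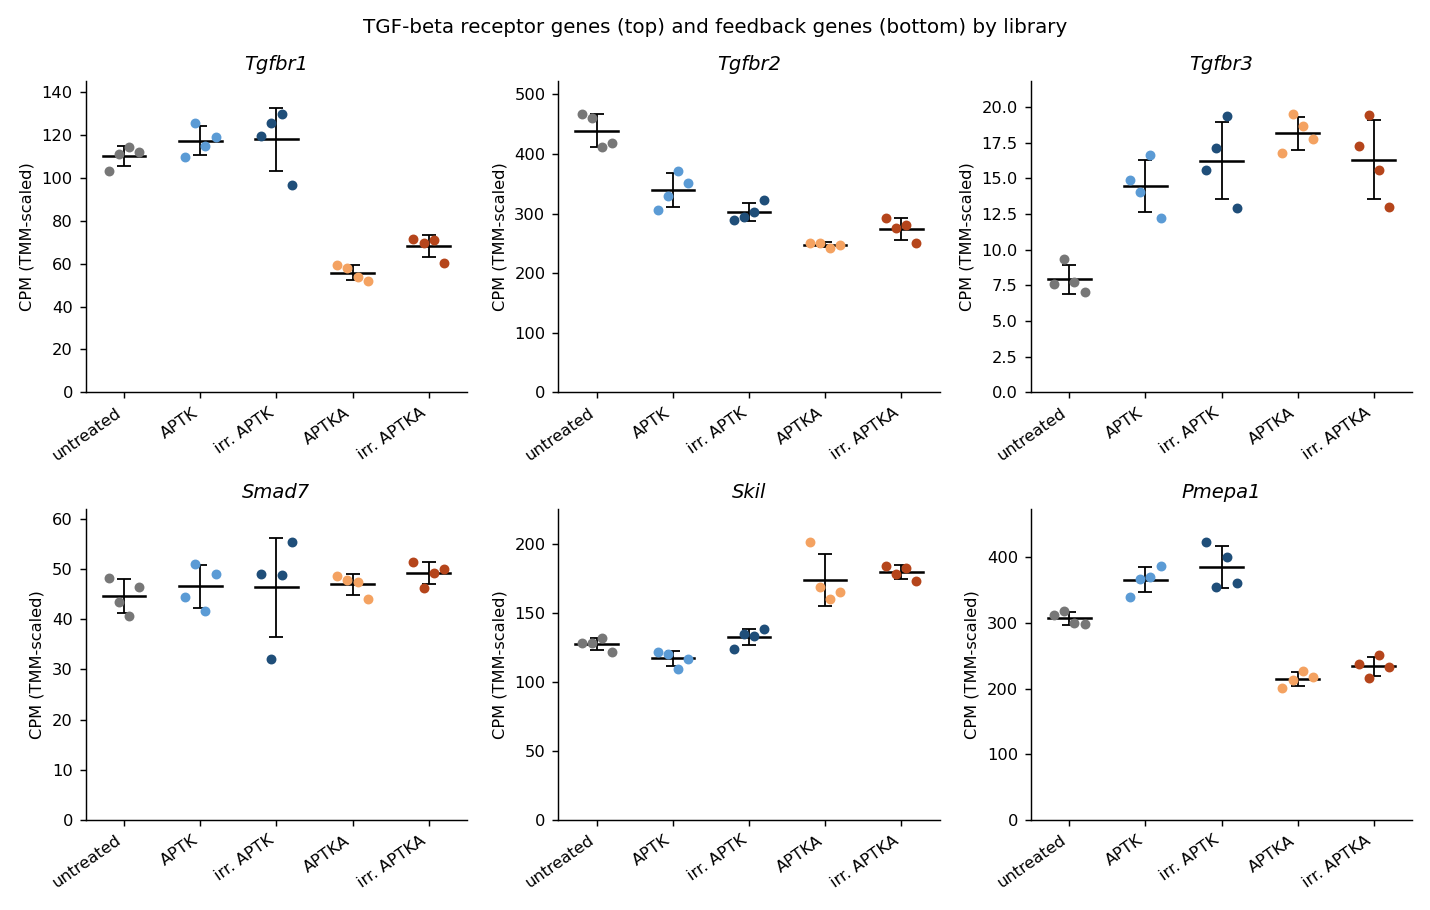
CPM (TMM-scaled) of the 3 receptor genes (top) and the 3 feedback genes (bottom) in each of the 20 libraries (points) by group, with the mean (long bar) and SD over 4 libraries; each axis starts at 0 and has its own scale. Tgfbr1 and Pmepa1 are lower in both APTKA groups than in all others, while Smad7 means lie between 44.7 and 49.2 CPM.

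The feedback genes did not move together. Pmepa1, a transmembrane protein that keeps SMAD2 and SMAD3 from the receptor, lies on chromosome 2 at 173224458 to 173276533. It held 312, 319, 299 and 298 CPM in untreated, 339.7, 367, 369 and 386 with APTK medium and 201, 213, 227 and 217 with APTKA medium. The 3 groups did not overlap: APTK libraries were highest and APTKA libraries lowest. Log2 fold changes were 0.25 ± 0.0590 (SE, adjusted p = 0.00104) with APTK and -0.52 ± 0.0592 (SE, adjusted p = 1.76e-08) with APTKA medium, and the media differed by -0.77 ± 0.0594 (SE, adjusted p = 1.00e-11). The irradiated arms had 423, 355, 400.0 and 362 CPM with APTK and 237, 216, 252 and 232 CPM with APTKA medium, again apart. Against untreated they gave 0.33 (adjusted p = 5.95e-05) and -0.39 (adjusted p = 2.01e-06), and they differed by -0.72 (adjusted p = 4.83e-11).

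Skil encodes SnoN, a nuclear corepressor of SMAD complexes, and lies on chromosome 3 at 31095058 to 31122577. It held 128, 129, 132 and 122 CPM in untreated, 122, 120.3, 109.8 and 117 with APTK medium and 201, 169, 160.4 and 165 with APTKA medium. APTKA libraries lay above all others of these groups, and APTK libraries lay just below untreated without overlap. The log2 fold change was 0.44 ± 0.0583 (SE, adjusted p = 1.92e-07) with APTKA medium and -0.13 (adjusted p = 0.0823) with APTK medium, with a 95% interval of -0.25 to -0.01. The second passed the threshold only when no other group entered the fit (-0.12, adjusted p = 0.044). Between the media Skil differed by 0.57 ± 0.0584 (SE, adjusted p = 2.40e-09). Irradiated libraries held 124, 135, 133 and 138 CPM with APTK and 184, 178, 182 and 173 CPM with APTKA medium, and differed by 0.44 (adjusted p = 2.73e-07). Against untreated, irradiated APTKA medium gave 0.49 (adjusted p = 3.58e-08) and irradiated APTK medium 0.05 (adjusted p = 0.496).

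Smad7 encodes the inhibitory SMAD that recruits ubiquitin ligases to the type I receptor, and lies on chromosome 18 at 75367529 to 75395935. It ranged over 40.6 to 48.2 CPM in untreated, 41.6 to 51.1 with APTK medium and 44.0 to 48.5 with APTKA medium. The groups overlapped. The 95% intervals of its log2 fold change were -0.16 to 0.28 with APTK medium, -0.15 to 0.29 with APTKA medium and -0.21 to 0.23 between them. In irradiated APTK medium it ranged over 32.1 to 55.4 CPM, with library II lowest. Without that library the log2 fold change against untreated went from 0.06 (adjusted p = 0.685) to 0.19 (adjusted p = 0.0265).

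Few of the 10 genes differed between an irradiated arm and its plain counterpart. Against plain APTKA medium, irradiated APTKA medium raised Tgfb2 by 0.34 ± 0.0758 (SE, adjusted p = 0.0303) on the log2 scale, the only one of the 10 past the threshold. Of all tested genes 0.729% passed, 0.452% as higher and 0.277% as lower. The irradiated libraries, at 206 to 237 CPM, all lay above the plain ones, at 162 to 188 CPM. This call was lost with upper quartile scaling (0.33, adjusted p = 0.0541) and when APTKA library II, III or IV or irradiated APTKA library I, III or IV was left out (0.31 to 0.35, adjusted p = 0.0739 to 0.125). Tgfbr1 was next at 0.29 (adjusted p = 0.0688), with libraries that did not overlap, and it passed in DESeq2 (0.29, adjusted p = 0.0214) and without irradiated APTKA library IV (0.34, adjusted p = 0.0377). Over all genes DESeq2 called 196 higher and 111 lower there. Libraries were apart for 3 of the 10 genes, Tgfb2, Tgfb3 and Tgfbr1, beside 10.5% of all genes. Against plain APTK medium, irradiated APTK medium called none of the 10 in edgeR and none in DESeq2, beside 1.38% of all genes in edgeR (0.547% higher and 0.837% lower). At an unadjusted p under 0.05, for which the share of all genes was not counted, there were 2, Tgfbr2 at -0.17 (adjusted p = 0.167) and Skil at 0.18 (adjusted p = 0.120). The libraries of 1 gene, Skil, were apart, beside 5.69% of all genes. Without irradiated APTK library IV, Tgfb2 fell by 0.25 (adjusted p = 0.0187) and Tgfbr2 fell by 0.20 (adjusted p = 0.0457) on the log2 scale, and without libraries II and IV Tgfb2 fell by 0.28 (adjusted p = 0.0223). The calls over all genes rose too, from 81 higher and 124 lower to 693 and 578 without library IV. Without libraries II and IV they were 462 and 556. Library IV lay on the side of plain APTK medium on the third principal component, so these fits are not counted as separate support.

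Whether irradiation acted alike in the 2 media was tested as the difference of its effects, APTKA minus APTK. For Tgfb2 it was 0.49 ± 0.109 (SE, adjusted p = 0.0646) on the log2 scale, for Tgfbr2 0.32 (adjusted p = 0.146), for Tgfbr1 0.28 (adjusted p = 0.355) and for Tgfb3 -0.20 (adjusted p = 0.380). None of the 10 passed in edgeR, beside 0.182% of all genes (0.121% higher and 0.0607% lower). These 4 had an unadjusted p under 0.05, for which the share of all genes was not counted. DESeq2 called 2 of the 10, Tgfb2 (0.50, adjusted p = 0.00689) and Tgfbr2 (0.32, adjusted p = 0.0423), beside 75 higher and 39 lower over all genes. Without irradiated APTK library IV, Tgfb2 (0.60, adjusted p = 2.40e-04) and Tgfbr2 (0.35, adjusted p = 0.023) passed in edgeR. That library lay on the side of plain APTK medium on the third principal component, so fits without it are not counted as separate support. Over all genes, calls rose from 18 higher and 9 lower with all libraries to 183 and 124 without that library. Tgfb2 also passed without APTK library III (0.54, adjusted p = 0.0379) and without APTKA library I (0.53, adjusted p = 0.0436). Without libraries II and IV, Tgfb2 was at 0.63 (adjusted p = 3.03e-04), Tgfbr2 at 0.37 (adjusted p = 0.0183) and Tgfb3 at -0.26 (adjusted p = 0.0265), beside 247 higher and 111 lower over all genes. For the other 6 genes the adjusted p was at least 0.61, and Inhba differed by -0.00 with a 95% interval of -0.30 to 0.29.

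Genes whose level over the 20 libraries ran closest to a member were found by the root mean square difference of centred log2 CPM, for the 4 members that changed at least 2-fold in a comparison past the threshold. The 10117 candidates were named genes with a mean log2 CPM of at least 2. Nearest to Tgfb2, whose log2 CPM spanned 1.90, were Zbtb38 (0.15), Tbx18 (0.19) and Trit1 (0.19). Nearest to Inhba were Bex3 (0.12), Por (0.12) and Ddah1 (0.14). Nearest to Tgfbr3 were Slc39a8 (0.17), Dram1 (0.19) and Rab15 (0.20), and nearest to Tgfbr1 were Kdelr2, Cpq and Tmem165 (0.11, 0.11 and 0.12). The 20 libraries fall into the same 5 groups for all genes, and the values describe likeness in these libraries only.

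In the pathway lists, signed values printed with an adjusted p are log2 fold changes against untreated. The lists' counts stand beside 31.5% of all tested genes called higher and 29.9% called lower with APTKA medium, and 20.9% and 22.5% with APTK medium, and nothing particular to a list is read from them. Of 13 other ligands of the family and their traps, 10 passed the filter, which Inhbc, Inhbe and Mstn did not. With APTKA medium 1 rose and 5 fell (median log2 fold change -0.55, beside 0.00 over all tested genes), and with APTK medium 3 rose and 1 fell (median 0.11, beside 0.00). The riser was Inhbb, the inhibin beta B chain of activin B, which went from 12.0 ± 0.662 CPM to 69.2 ± 3.89 with APTKA medium (2.53 ± 0.0845 SE, adjusted p = 1.72e-19) and 24.7 ± 2.41 with APTK medium (1.04, adjusted p = 2.02e-10). One APTK library of Inhbb, library III, lay at 28.3 CPM and the others between 23.2 and 23.8. Fst, which encodes the activin trap follistatin, fell with APTKA medium from 16.7 ± 1.73 to 9.54 ± 1.05 CPM (-0.81, adjusted p = 2.01e-06) and was at 0.15 (adjusted p = 0.297) with APTK medium. Bgn and Dcn, matrix proteoglycans that bind TGF-beta, fell with APTKA medium, with log2 fold changes of -0.88 (adjusted p = 2.01e-08) and -0.81 (adjusted p = 5.67e-07). Dcn also stands among the fibroblast markers, which fell in the same libraries. Fstl3, a relative of follistatin, was at 0.20 (adjusted p = 0.194) and 0.04 (adjusted p = 0.848) with APTKA and APTK medium. With only the compared groups in the fit, Fstl3 passed with APTKA medium (0.21, adjusted p = 0.0241).

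Of 18 genes of latency and activation 17 were tested, all but Itgb6. With APTKA medium 3 rose and 8 fell (median -0.24), with APTK medium 5 rose and 6 fell (median 0.06). Lrrc32 encodes GARP, which tethers latent TGF-beta to the cell surface. It went from 32.0 ± 8.30 CPM in untreated to 163 ± 10.9 with APTKA medium (2.35 ± 0.157 SE, adjusted p = 4.53e-10) and 52.7 ± 9.66 with APTK medium (0.72, adjusted p = 0.00114), where its libraries overlapped untreated. Itgb8 and Itgav, chains of the integrin that frees TGF-beta, fell with APTKA medium (-2.12 and -0.89, adjusted p = 5.67e-08 and 1.11e-09). Itgb8 was at a low level of 1.78 ± 0.315 CPM in untreated and also fell with APTK medium, to 0.433 ± 0.157 CPM (-2.04, adjusted p = 3.30e-07), whereas Itgav was at -0.12 (adjusted p = 0.255) there. Ltbp1, a latent TGF-beta binding protein, fell with APTKA medium (-0.34, adjusted p = 6.44e-06) and APTK medium (-0.14, adjusted p = 0.0423). The second Ltbp1 call was lost with upper quartile scaling (-0.10, adjusted p = 0.124) and with no filter on low counts (-0.13, adjusted p = 0.146). A filter of at least 5 CPM in 4 libraries ended it as well (-0.12, adjusted p = 0.0594). It was also lost without APTK library I or III and without untreated library II, III or IV (-0.14 to -0.10, adjusted p = 0.066 to 0.184). Thbs1, thrombospondin 1, which can activate latent TGF-beta, rose with APTKA (0.25, adjusted p = 0.00113) and APTK medium (0.56, adjusted p = 4.36e-08). Furin, a protease that cleaves TGF-beta precursors, rose with APTKA medium (0.53, adjusted p = 1.28e-05).

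Of 10 other receptors 8 were tested, without Acvr1c and Tdgf1. With APTKA medium 3 rose and 4 fell (median -0.05), with APTK medium 2 rose and none fell (median -0.04). Acvr2a, a type II receptor for activins, fell from 139 ± 15.7 CPM to 40.0 ± 2.64 with APTKA medium (-1.79 ± 0.106 SE, adjusted p = 4.03e-12), 3.47-fold lower, and stood at 128 ± 6.42 with APTK medium (-0.11, adjusted p = 0.388). Acvr2b was at 0.15 (adjusted p = 0.637) and -0.17 (adjusted p = 0.658), at 0.780 ± 0.206 CPM in untreated. The type I activin receptor Acvr1b rose with APTKA medium (0.50, adjusted p = 9.00e-07) and was at 0.15 (adjusted p = 0.0908) with APTK medium. The second passed with upper quartile scaling (0.19, adjusted p = 0.0376). Acvrl1, the type I receptor ALK1, rose with APTKA (0.99, adjusted p = 3.47e-15) and APTK medium (0.39, adjusted p = 8.38e-07), and so did Bambi, a decoy receptor (0.86, adjusted p = 1.79e-07 and 0.53, adjusted p = 4.93e-04). Eng, the co-receptor endoglin, fell with APTKA medium (-0.53, adjusted p = 9.62e-06) and was at -0.17 (adjusted p = 0.118) with APTK medium. The latter passed without APTK library IV (-0.24, adjusted p = 0.0435).

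Of 9 SMADs and cofactors 8 were tested, without Foxh1, and their changes were small. With APTKA medium 2 rose and none fell (median 0.09), and with APTK medium 1 rose and 1 fell (median -0.01). The receptor-activated Smad3 rose with both media (0.26, adjusted p = 1.16e-05 with APTKA, 0.30, adjusted p = 3.50e-06 with APTK). Its relative Smad2 was at -0.01 (adjusted p = 0.829) with APTKA medium and fell with APTK medium (-0.36, adjusted p = 1.41e-06). The common partner Smad4 was at 0.06 (adjusted p = 0.256) with APTKA and -0.05 (adjusted p = 0.325) with APTK medium. Of 14 negative regulators, all tested, 4 rose and 5 fell with APTKA medium (median 0.03), and 1 rose and 6 fell with APTK medium (median -0.12). The largest rises with APTKA medium, among those with libraries apart, were Tgif2 and Ppp1r15a, with log2 fold changes of 0.76 and 0.47. Tgif2 was at a low level of 0.998 ± 0.181 CPM in untreated. Smad6, the other inhibitory SMAD, fell with APTKA medium from 26.2 ± 1.24 to 10.8 ± 1.01 CPM (-1.28 ± 0.135 SE, adjusted p = 2.18e-08) and was at -0.02 (adjusted p = 0.899) with APTK medium. Ski, the corepressor related to Skil, fell with APTKA medium (-0.72, adjusted p = 6.95e-07), opposite to Skil, and was at -0.11 (adjusted p = 0.346) with APTK medium.

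Of 32 genes listed as TGF-beta targets 31 were tested, without Comp, and they moved both ways. With APTKA medium 10 rose and 14 fell (median -0.00), and with APTK medium 5 rose and 10 fell (median -0.10). Ccn2, connective tissue growth factor, rose from 1009.7 ± 22.4 CPM to 2982 ± 202 and 1793 ± 109 with APTKA and APTK medium (1.56, adjusted p = 9.68e-18 and 0.83, adjusted p = 2.54e-11). The contractile gene Acta2 fell with APTKA medium (-0.38, adjusted p = 6.26e-05) and was at -0.14 (adjusted p = 0.116) with APTK medium. The latter passed without untreated library II (-0.20, adjusted p = 0.0332). Tagln, also contractile, fell with APTKA medium (-0.26, adjusted p = 0.00181) and rose with APTK medium (0.36, adjusted p = 1.46e-04). Tgfbi, a secreted matrix protein named for its induction by TGF-beta, was at -0.04 (adjusted p = 0.814) with APTKA and -0.12 (adjusted p = 0.469) with APTK medium. Timp3, a metalloproteinase inhibitor, fell from 384 ± 30.7 CPM to 53.0 ± 1.05 with APTKA and 133 ± 4.69 with APTK medium (-2.86, adjusted p = 6.96e-24 and -1.52, adjusted p = 5.41e-17), and Fap, a fibroblast surface protease, fell with APTKA medium (-1.10, adjusted p = 9.30e-08). Col1a1, Col1a2 and Col3a1 stand both in this list and among the fibroblast markers, so their fall counts in both. Exons of Acvr2a, Acvrl1, Ccn2, Eng, Fst, Fstl3, Furin, Itgav, Tagln, Thbs1 and Timp3 are shared in part with another annotated gene, so their values are uncertain to that extent. The largest overlap was 62.4% of exon length for Tagln, 47.3% for Fstl3, 23.2% for Ccn2 and 21.3% for Timp3. For the others it was at most 7.84%.

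**Figure D5:**
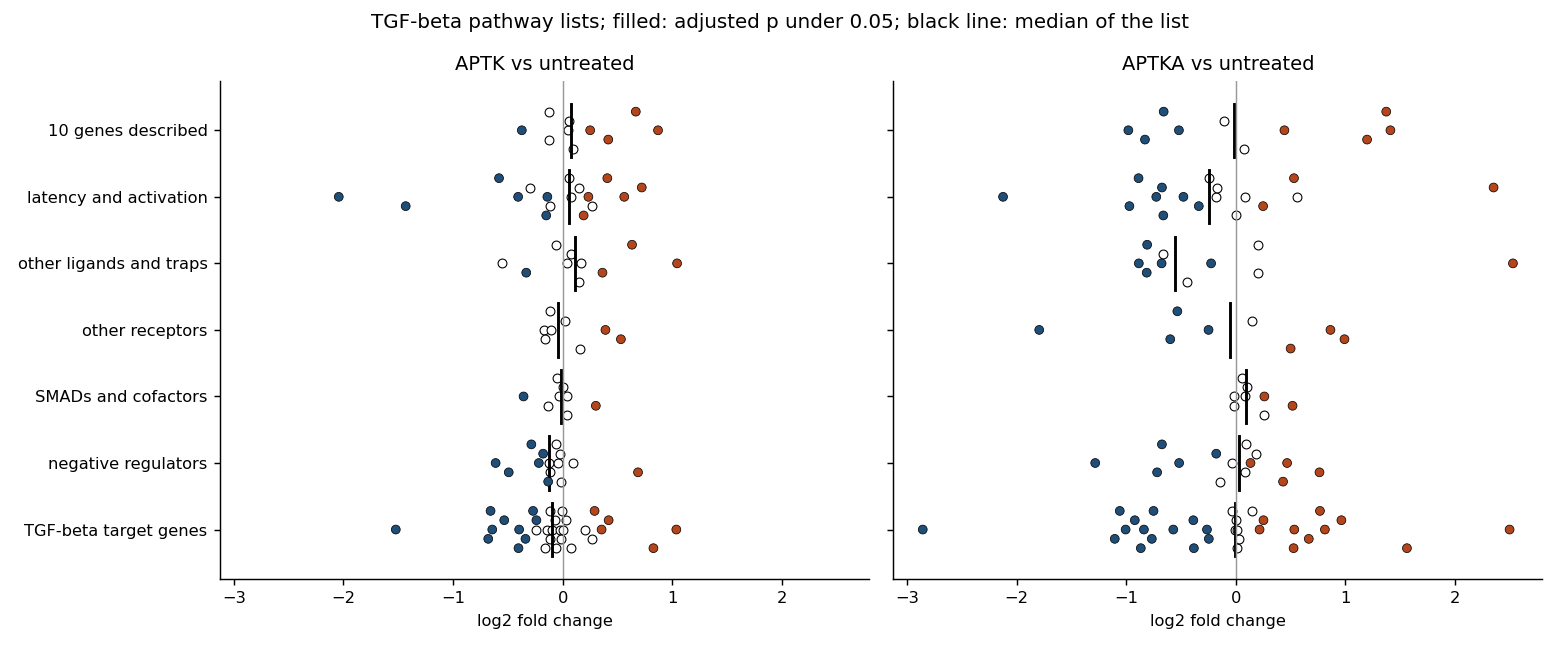
Log2 fold change against untreated of every tested gene (points) of the 10 genes described and of 6 other lists (rows), with APTK medium (left) and APTKA medium (right); filled points have an adjusted p under 0.05, red higher and blue lower, and black lines are list medians. With APTKA medium, points reach from -2.86 (Timp3) to 2.53 (Inhbb), and the list medians lie between -0.55 and 0.09.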

How the data were processed

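Read counts per gene, raw and not normalised, were deposited by the authors as 1 table per library. The submitters' processing notes list the build mm10, bcl2fastq 2.20.0.422, the aligner STAR 2.5.2a and the counter featureCounts 1.5.0-p1. For the annotation release, strand setting and multiple matches, the sources used here give nothing. In R 4.3.3, edgeR 4.0.16 tested the counts (quasi-likelihood test, TMM, default filter by group) in 1 fit of 5 group means with 15 residual degrees of freedom, for 9 comparisons. Two-sided p-values were Benjamini-Hochberg adjusted over 14820 genes at a false discovery rate of 5%. SE was obtained from the log2 fold change and the F statistic. Exon lengths came from GENCODE M21. The method was run on counts simulated from the fitted dispersions for APTKA medium against untreated only, and not for the irradiation comparisons. The simulation changed far fewer genes than were called in that comparison, and its outcome is not given here. Alternatives were DESeq2 1.42.0, upper quartile scaling, other filters, a replicate block, fits of the compared groups alone, and each library left out in turn. Replicates differed by more than counting noise in every pair (chi-square over degrees of freedom, 4.79 to 88.2). Named were the 10 genes, 18 fixed pathway genes, and examples among up to 2 of the largest rises and falls per list past the threshold with libraries apart. The members and lists were chosen with earlier results of these data known. One fixed pathway gene is not reported here.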

Additional observations from a re-analysis of the deposited data

Results flagged for a closer look

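In 3 of 140 combinations of 28 genes and 5 groups, 1 library of 4 lay far from the others, by Dixon's criterion. Chance alone marks about 5% of such groups. Tgfbr1 was at 60.3 CPM in irradiated APTKA library IV, against 69.9 to 71.3 CPM in the other irradiated APTKA libraries. Inhbb was at 28.3 CPM in APTK library III, against 23.2 to 23.8 CPM. Thbs1 was at 22147 CPM in APTKA library I, against 19622 to 19982 CPM.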

How the results depend on the processing

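Alternatives gave 1380 values for 90 results of the 10 genes. Of 43 results past the threshold none reversed, 38 kept it under every alternative run and 5 lost it under at least 1; 11 others passed under at least 1. Among plain media and untreated, 1 count moved by over 1.5 times: with only the compared groups in the fit, 2 members instead of 1 were lower with APTK medium. Upper quartile scaling took members higher with APTKA than APTK medium from 4 to 3, and shifted the balance of all genes: with APTK medium against untreated, 3099 higher and 3334 lower became 3730 and 2898, and for APTKA against APTK medium, 4607 and 4717 became 3941 and 5471. The irradiation counts moved more. For irradiated against plain APTKA medium, 67 genes were higher and 41 lower; these became 196 and 111 in DESeq2, 220 and 96 with no filter, 287 and 225 with only the compared groups, and 47 and 47 with upper quartile scaling. Members higher there went from 1 to 2 in the first 3 and to 0 in the last. For irradiated against plain APTK medium, 81 were higher and 124 lower; these became 209 and 230 in DESeq2, 197 and 295 with no filter, 6 and 4 with only the compared groups, and 462 and 556 without libraries II and IV, where 1 member was lower instead of 0. For the difference of irradiation effects, 18 were higher and 9 lower; these became 75 and 39 in DESeq2, 158 and 51 with no filter, and 247 and 111 without libraries II and IV. Members higher there went from 0 to 2, 3 and 2, and members lower from 0 to 1 in the last. Leaving out 1 library at a time gave 23 to 103 higher, 9 to 43 lower and 0 to 1 members higher for irradiated APTKA medium; 10 to 693, 20 to 578 and 0 to 2 members lower for irradiated APTK medium, highest without irradiated APTK library IV; and 2 to 183, 2 to 124 and 0 to 2 members higher for the difference. The cause was not tested. Replicate numbers did not pair the libraries, with correlations of same-numbered deviations of -0.108 to 0.0959. With libraries counted anew in each comparison of 2 groups, so that they recur, 10 of 32 correlated best with their own number. With the replicate block, Tgfb2 passed in the difference (0.50, adjusted p = 0.037), 1 member instead of 0, and Tgfb3 in irradiated APTK medium against untreated (0.13, adjusted p = 0.0622) and Tgfbr2 between the irradiated media (-0.14, adjusted p = 0.065) did not. Without division by exon length the Tgfb2 share was 26.7% with APTK and 53.0% with APTKA medium; this alternative, and leaving out II and IV together, were chosen after seeing the data.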

Other observations

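For some genes of the lists the 2 media differed. Ppp1r15a, which encodes GADD34, a partner of protein phosphatase 1, rose with APTKA medium (0.47, adjusted p = 7.16e-06) and fell with APTK medium (-0.49, adjusted p = 1.16e-05), from 69.8 ± 3.07 CPM in untreated to 96.5 ± 10.2 and 49.6 ± 2.49. The media differed by 0.96 ± 0.0778 (SE, adjusted p = 4.42e-11) on the log2 scale, and the irradiated media by 0.99 (adjusted p = 3.21e-11). Snai2, the transcription factor SLUG, rose with APTK medium from 11.5 ± 2.79 to 23.5 ± 1.35 CPM (1.04, adjusted p = 3.74e-05) and was at 11.5 ± 1.38 CPM with APTKA medium (0.00, adjusted p = 0.998), a difference between media of -1.04 (adjusted p = 1.56e-05). Fbn2, the microfibril protein fibrillin 2, fell with APTK medium (-1.43, adjusted p = 2.70e-05) and was at -0.17 (adjusted p = 0.477) with APTKA medium, and the media differed by 1.26 (adjusted p = 4.29e-05). Tgif1, a corepressor of SMADs, fell with APTK medium (-0.61, adjusted p = 8.92e-09) and, less far, with APTKA medium (-0.18, adjusted p = 0.0143), with a difference of 0.43 (adjusted p = 9.34e-07) between the media. The Tgif1 call with APTKA medium was lost without APTKA library IV (-0.15, adjusted p = 0.0533) and without untreated library I (-0.15, adjusted p = 0.0601). Exons of Ppp1r15a and Fbn2 are shared in part with another annotated gene.

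Of the genes in the pathway lists, 2 passed the threshold in a comparison of an irradiated with a plain medium. They were 1 of 31 target genes tested and 1 of 10 other ligands and traps tested. Over all tested genes 0.729% passed for APTKA and 1.38% for APTK medium. Nothing particular to the lists is read from this count. Timp3 rose in irradiated against plain APTKA medium, from 53.0 ± 1.05 to 67.9 ± 4.14 CPM (0.36 ± 0.0577 SE, adjusted p = 0.00162), and Inhbb fell in irradiated against plain APTK medium, from 24.7 ± 2.41 to 19.0 ± 2.62 CPM (-0.37 ± 0.0837 SE, adjusted p = 0.0268). The Inhbb call was lost with only the compared groups in the fit (-0.37, adjusted p = 0.222), without APTK library II or III, and without irradiated APTK library I, II or III (-0.39 to -0.29, adjusted p = 0.0576 to 0.136). Without irradiated APTK library IV, other genes of the lists passed against plain APTK medium, among them Acvr2a (-0.41, adjusted p = 0.00348), Tgfbi (0.44, adjusted p = 0.0459), Ccn2 (0.21, adjusted p = 0.0451), Itgav (0.32, adjusted p = 0.0189), Fap (0.44, adjusted p = 0.0164) and Fbn2 (-0.70, adjusted p = 0.018). Over all genes 693 were higher and 578 lower without that library, against 81 and 124 with all libraries, so the named genes are examples only. The difference of irradiation effects, APTKA minus APTK, then passed for Acvr2a (0.50, adjusted p = 0.0242) and Inhbb (0.46, adjusted p = 0.0185). For this difference 183 genes were higher and 124 lower without library IV, against 18 and 9 with all libraries. Without libraries II and IV, Acvr2a was at -0.55 (adjusted p = 2.88e-04) against plain APTK medium, and the difference was 0.64 (adjusted p = 0.00186) for Acvr2a and 0.40 (adjusted p = 0.0308) for Inhbb. Over all genes 462 were then higher and 556 lower against plain APTK medium, and 247 and 111 in the difference.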
